A study of Mus musculus with 3 samples.

Results

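The lysosomal genes described here are 36 genes for enzymes, membrane proteins, proton pump parts and transcription factors of the lysosome, the acidic compartment in which cells break down proteins, sugars and lipids. They are a list of symbols, with no threshold on measured values, and all 36 were found among the 30360 genes of the count tables. The study took mouse left ventricles apart into single cells and sequenced 3 libraries, 1 per group, each pooled from 4 samples of mice labelled C56Bl6. The group HFpEF-FoxO1-sh had been on 6 weeks of a High-Fat + L-NAME diet and had carried a vector labelled AAV-FoxO1-sh for 4 weeks. The group HFpEF-scr had been on the same diet for 6 weeks, with a vector labelled AAV-scramble-sh for 4 weeks. The group Control was fed a control diet for 10 weeks, with no vector named. HFpEF stands for heart failure with preserved ejection fraction, L-NAME blocks nitric oxide synthases, and AAV is an adeno-associated virus that here carried a short hairpin RNA. The age and sex of the animals, the AAV serotype and its promoter are not given in the sources used here. Cardiomyocytes had been strained out before sequencing, and a cluster with cardiomyocyte markers still held 69 cells of HFpEF-FoxO1-sh, 40 of HFpEF-scr and 45 of Control, too few to be read.

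With 1 pooled library per group no difference could be tested between animals. Every interval below is a 95% interval for counting error within a library, and no p-value is given. The libraries held 27453 barcodes (HFpEF-FoxO1-sh), 36179 barcodes (HFpEF-scr) and 33022 barcodes (Control), with 144561934, 154385813 and 146230530 unique molecular identifiers (UMIs, 1 per captured RNA molecule) in the same order. Between 238 and 335 barcodes were shared by any pair of libraries. Mitochondrial RNA set the libraries apart, with a median of 11.7% of UMIs per barcode in HFpEF-FoxO1-sh, 22.1% in HFpEF-scr and 24.6% in Control. After a limit of 20% and removal of marked doublets, 16854 cells remained in HFpEF-FoxO1-sh, 14567 in HFpEF-scr and 12757 in Control, with median depths between 6520 and 6889 UMIs. Foxo1, the gene the hairpin is named for, was at 59.7 CPM (UMIs of a gene divided by all UMIs of the cells and scaled to 1000000) in HFpEF-FoxO1-sh, 56.2 CPM in HFpEF-scr and 61.1 CPM in Control over all kept cells. Over all kept cells Foxo1 was thus not lower in the library labelled HFpEF-FoxO1-sh, with a ratio to HFpEF-scr of 1.06 (1.03 to 1.10). In endothelial cells Foxo1 was at 63.5 CPM in that library, 80.8 CPM in HFpEF-scr and 66.6 CPM in Control, so HFpEF-scr was the highest. In fibroblasts Foxo1 was at 64.2, 59.1 and 64.2 CPM in the same order. Its level in the cardiomyocytes that were removed is not known from these data, and the part of Foxo1 in the differences below was not tested.

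Lysosomal hydrolases are made in the endoplasmic reticulum, carried to the lysosome on mannose 6-phosphate receptors and switched on by the acid that the vacuolar proton pump (V-ATPase) makes. The transcription factors TFEB and TFE3 bind E-box elements in the promoters of many of these genes, and macrophages, which digest dead cells and debris, carry large amounts of the enzymes. In the heart, cathepsins also act outside the cell on collagen and elastin, and inherited loss of several of these enzymes causes storage disease of the heart muscle.

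Promoter sequence is shown for the 5 members on which the description below turns most. Ctsd, Gla and Atp6v1a are 3 of the 12 members whose windows held the E-box. These 3 were higher in HFpEF-scr macrophages than in either of the other libraries. Ctss and Ctsc had molecules that came mostly from macrophages. Psap was also highest in HFpEF-scr macrophages without an E-box in its window, and Lgmn held the E-box but was nearly even between the libraries. The E-box members also include Glb1, Gaa and Naglu. With Gla, they belong to the 7 glycan hydrolases, whose macrophage median log2 ratio was -0.17 for HFpEF-scr over Control. A link between the E-box and the order of the libraries was not tested. The windows are RefSeq sequence of build GRCm38.p6, from 250 bases before to 50 bases after the RefSeq start of the gene, written 5′ to 3′ on the strand of the gene. For Ctss and Ctsc the GENCODE gene on GRCm38 begins at the same base, while for Ctsd, Gla and Atp6v1a it begins 211, 120 and 446 bases farther upstream, so that these 3 windows lie partly or wholly inside the GENCODE gene. Capitals mark CACGTG in the first 3 and, in the last 2, ACTTCCTC, which is GAGGAAGT of the PU.1 type read on the opposite strand. Ctsd lies at chr7:142387778-142388077 on the minus strand, Gla at chrX:134600956-134601255 on the minus strand, Atp6v1a at chr16:44139210-44139509 on the minus strand, Ctss at chr3:95526536-95526835 on the plus strand and Ctsc at chr7:88277835-88278134 on the plus strand.
Ctsd: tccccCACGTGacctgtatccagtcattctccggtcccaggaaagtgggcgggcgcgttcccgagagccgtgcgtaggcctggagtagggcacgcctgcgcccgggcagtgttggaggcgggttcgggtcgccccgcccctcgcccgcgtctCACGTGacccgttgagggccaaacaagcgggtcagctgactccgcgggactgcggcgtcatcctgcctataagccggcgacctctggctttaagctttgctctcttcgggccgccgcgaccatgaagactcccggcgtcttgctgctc
Gla: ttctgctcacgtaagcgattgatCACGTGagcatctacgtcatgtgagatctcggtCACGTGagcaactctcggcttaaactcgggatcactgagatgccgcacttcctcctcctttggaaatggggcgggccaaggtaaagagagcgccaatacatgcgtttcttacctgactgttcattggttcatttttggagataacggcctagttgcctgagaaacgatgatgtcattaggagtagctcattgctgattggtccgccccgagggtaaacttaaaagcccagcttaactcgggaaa
Atp6v1a: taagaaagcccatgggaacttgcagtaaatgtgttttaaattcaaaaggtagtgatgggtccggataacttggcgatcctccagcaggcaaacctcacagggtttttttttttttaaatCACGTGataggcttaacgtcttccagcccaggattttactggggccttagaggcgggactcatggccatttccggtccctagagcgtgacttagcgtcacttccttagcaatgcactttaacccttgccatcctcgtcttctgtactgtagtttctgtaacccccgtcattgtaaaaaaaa
Ctss: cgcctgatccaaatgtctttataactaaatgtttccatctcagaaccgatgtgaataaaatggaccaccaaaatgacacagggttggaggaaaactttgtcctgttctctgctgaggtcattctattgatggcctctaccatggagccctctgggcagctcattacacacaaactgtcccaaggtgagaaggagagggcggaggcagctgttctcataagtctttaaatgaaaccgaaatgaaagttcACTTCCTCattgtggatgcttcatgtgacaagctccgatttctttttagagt
Ctsc: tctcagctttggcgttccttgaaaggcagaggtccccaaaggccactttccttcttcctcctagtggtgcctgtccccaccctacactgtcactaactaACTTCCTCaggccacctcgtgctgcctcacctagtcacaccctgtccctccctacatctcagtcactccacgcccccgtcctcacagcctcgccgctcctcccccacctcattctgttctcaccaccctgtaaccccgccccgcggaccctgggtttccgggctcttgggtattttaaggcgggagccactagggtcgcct

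RefSeq windows were found for 31 of the 36 members, and CACGTG, which reads the same on both strands, was present in 12 of the 31 (38.7%). Of all 27025 genes with windows of the same length 8.09% held it in at least 1 window. The longer TCACGTGA, each copy of which contains CACGTG, was present in 6 of the 31 members (19.4%) and in 1.12% of all genes. Both CACGTG copies in the Gla window lie within TCACGTGA, and Ctsd has copies whose first base lies 245 and 98 bases before the RefSeq start. GAGGAAGT, searched on both strands, was present in the windows of Ctsc, Ctss, Gla and Gusb (12.9% of the 31) and in 3.69% of all genes. A match in these letters is a description of the sequence and not evidence of binding.

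Lysosomal transcripts were most concentrated in macrophages. Cells were clustered without the 36 members and named by marker genes, and 15 classes had at least 50 cells in each library. Of these, 4 (platelet, erythroid, B cell and pericyte) were left out because a cluster of each held fibroblast, macrophage or endothelial markers at 50% or more of that class's own level, and 11 classes were read. Of the 11, 2 are called here by their leading genes because their cells were mixed. The cluster led by Cd209a and Tnip3 had been named for type 1 conventional dendritic cells, but cell by cell 266 of its cells scored as type 2 and 129 as type 1. The cluster led by Gzma and Ccl5 had been named for NK cells, but 631 of its cells scored as T cells and 231 as NK cells. The 36 members together took 15831 CPM of the macrophage UMIs in HFpEF-FoxO1-sh, 15297 CPM in HFpEF-scr and 15261 CPM in Control. Monocytes came next, with 11221, 10082 and 9750 CPM in the same order of libraries. The dendritic cluster led by Cd209a and Tnip3, fibroblasts, Schwann cells and endocardial cells formed a middle group between 5124 and 8891 CPM. T cells and the cluster led by Gzma and Ccl5 were lowest, between 1625 and 2357 CPM. The 3 libraries of a class differed far less than the classes did, and macrophages stood at 2.39 times fibroblasts in HFpEF-FoxO1-sh, 2.39 times in HFpEF-scr and 2.47 times in Control. Fibroblasts nevertheless supplied most lysosomal molecules of the tissue suspension, 58.4% of member UMIs in HFpEF-FoxO1-sh, 55.9% in HFpEF-scr and 58.6% in Control, because they were the most numerous cells. They were 10372 of 16854 kept cells in HFpEF-FoxO1-sh, 9109 of 14567 in HFpEF-scr and 8296 of 12757 in Control. Macrophages supplied 24.2%, 21.3% and 18.9% of member UMIs in the same order, from 11.02%, 9.54% and 8.09% of all UMIs.

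**Figure D1:**
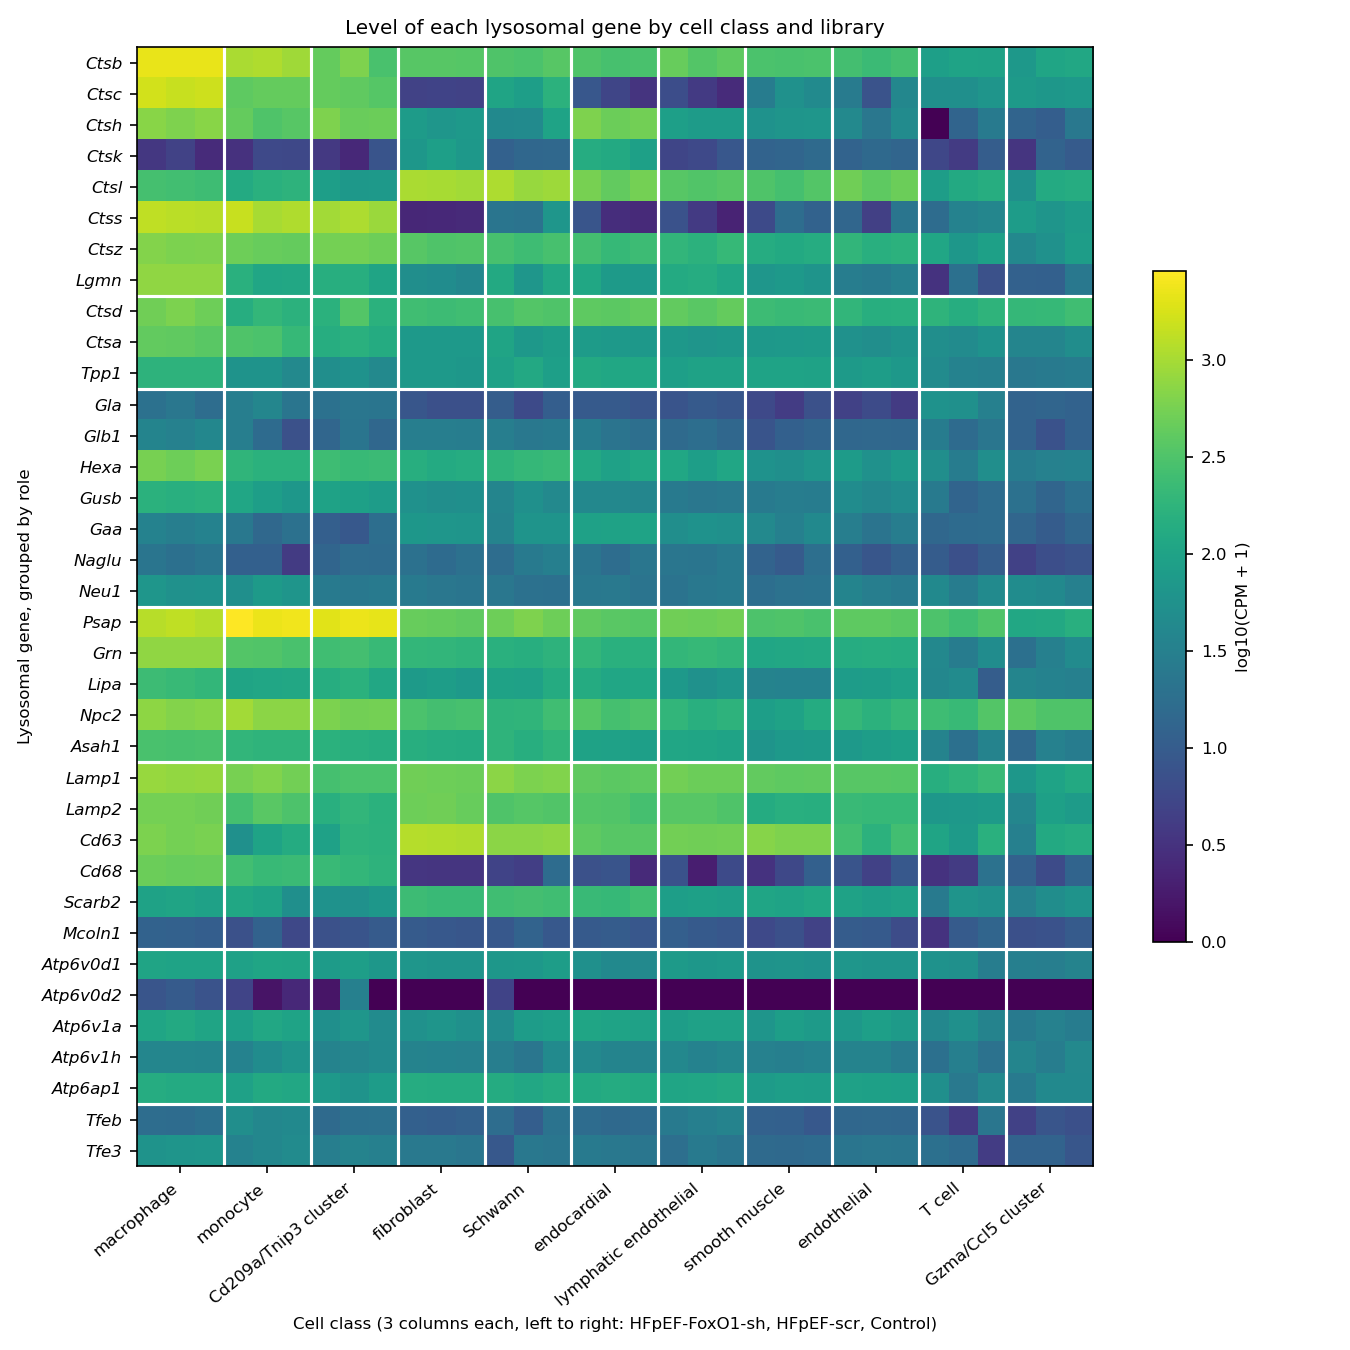
Level of each of the 36 lysosomal genes (rows, grouped by role) in 11 cell classes, as a colour for log10(CPM + 1) of the UMIs of the class, with brighter colours for higher levels. Each class has 3 columns, HFpEF-FoxO1-sh, HFpEF-scr and Control from left to right. The macrophage, monocyte and Cd209a/Tnip3 columns are brightest for Ctsc, Ctss, Cd68 and Psap, while Ctsk, Ctsl, Cd63 and Scarb2 are brighter in fibroblasts than in macrophages, and the 3 columns of a class look alike for most genes.

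Of the cysteine cathepsins, Ctss and Ctsc were far higher in macrophages than in fibroblasts. Ctss, cathepsin S, which trims the invariant chain during antigen presentation, was at 1324 CPM in macrophages of HFpEF-FoxO1-sh, 1250 CPM in HFpEF-scr and 1225 CPM in Control. Fibroblasts held 1.43, 1.52 and 1.58 CPM of Ctss in the same order of libraries, 774 to 928 times less. At least 1 Ctss UMI was seen in 98.4% of macrophages of HFpEF-FoxO1-sh, 98.3% of HFpEF-scr and 99.2% of Control, but in 0.858%, 0.703% and 0.832% of fibroblasts, at median depths of 5896 to 6872 UMIs. After each cell was thinned to 1000 UMIs, Ctss was seen in 64.6% to 69.7% of macrophages and 0.121% to 0.157% of fibroblasts. The fibroblast share is given as a background beside the macrophage share, and its source was not tested. Per 1000 UMIs of the macrophage markers, Ctss had 27.3 (HFpEF-FoxO1-sh), 33.3 (HFpEF-scr) and 31.6 UMIs (Control) in fibroblasts, and 35.996, 38.3 and 34.1 UMIs in macrophages. By this measure Ctsc had 72.8, 88.6 and 75.8 UMIs in fibroblasts, against 45.1, 44.4 and 43.2 in macrophages. Cd68 had 47.5, 53.5 and 47.8 UMIs in fibroblasts, against 13.2, 13.6 and 12.8 in macrophages. Ctsc, cathepsin C or dipeptidyl peptidase 1, the activator of granule serine proteases, was 359 to 437 times higher in macrophages than in fibroblasts. Ctsb, a general-purpose endo- and carboxypeptidase, was at 2200, 2194 and 2198 CPM in macrophages of HFpEF-FoxO1-sh, HFpEF-scr and Control, above the 916 to 1094 CPM of monocytes.

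Other members were not macrophage genes. Ctsk, cathepsin K, the collagen-cutting cathepsin of osteoclasts, was at 1.67 to 3.75 CPM in macrophages and 67.2 to 88.4 CPM in fibroblasts. Fibroblasts, which were most of the kept cells, supplied 84.8% of all Ctsk UMIs in HFpEF-FoxO1-sh, 83.6% in HFpEF-scr and 82.6% in Control. Endocardial cells carried still more per cell, with Ctsk at 135 CPM (HFpEF-FoxO1-sh), 124 CPM (HFpEF-scr) and 91.2 CPM (Control). Ctsl, cathepsin L, was at 963 to 1029 CPM in fibroblasts, with Schwann cells at 848 to 1083 CPM, and these 2 ranges overlap. Cd63, a tetraspanin of lysosomes and exosomes, was at 1103 to 1199 CPM in fibroblasts, above the 724 to 770 CPM of Schwann cells. Scarb2, the receptor that carries glucocerebrosidase to the lysosome, had its highest mean in Schwann cells. Its range there, 248 to 264 CPM, overlaps that of the next class. Gaa, the acid alpha-glucosidase missing in Pompe disease, was highest in endocardial cells at 95.7 to 99.95 CPM.

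Counted over the list, macrophages had the highest mean level for 21 of the 36 members, where 6.34% of all 14771 genes with at least 100 UMIs were highest in macrophages. Monocytes were highest for 6, fibroblasts for 3, Schwann cells and endocardial cells for 2 each, and T cells and the cluster led by Cd209a and Tnip3 for 1 each. The 1 in that cluster was Atp6v0d2, of whose 63 UMIs there in HFpEF-scr a single cell held 44. For 16 of the 21 macrophage genes the range over the 3 libraries did not overlap that of the next class, beside 51.9% of all 936 genes that were highest in macrophages. Set against fibroblasts, 18 members were at least 2 times higher in macrophages in all 3 libraries, among them Cd68, Lgmn, Grn, Hexa and Npc2, and 3 were at least 2 times higher in fibroblasts, namely Ctsk, Ctsl and Scarb2. The 18 and the 3 are given without a share of all genes beside them and are a description. Psap, the precursor of the saposins that present lipids to their hydrolases, was highest in monocytes, at 2870 CPM in HFpEF-FoxO1-sh, 2308 CPM in HFpEF-scr and 2418 CPM in Control. Tfeb itself was low throughout and highest in monocytes at 38.3 to 49.9 CPM, against 15.8 to 18.1 CPM in macrophages. Atp6v0d2, the V-ATPase d subunit of osteoclasts and macrophages, was at 6.69 to 8.82 CPM in macrophages and had 2 UMIs in fibroblasts of HFpEF-FoxO1-sh and 0 in those of the other two libraries, where a count of 0 allows up to 0.0485 CPM (HFpEF-scr) and 0.0505 CPM (Control).

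Between conditions the question is whether the High-Fat + L-NAME diet with the scramble vector (HFpEF-scr against Control), and then the FoxO1 hairpin on that diet (HFpEF-FoxO1-sh against HFpEF-scr), went with another level of these genes. Both comparisons use the same HFpEF-scr library, so an unusual HFpEF-scr value moves them in opposite directions. A gene counted as measured with at least 100 UMIs over the 2 libraries of a class, and as past the fold at a CPM ratio of 1.5 either way. In fibroblasts 35 of the 36 members were measured, all but Atp6v0d2, and 0 passed the fold in HFpEF-scr against Control, where 2.41% of all 12491 measured genes did. None of the 35 passed it in HFpEF-FoxO1-sh against HFpEF-scr either, where 2.27% of 12679 genes did. In macrophages 35 were measured, all but Ctsk, with 0 past the fold in HFpEF-scr against Control (2.57% of 8786 genes) and 0 in HFpEF-FoxO1-sh against HFpEF-scr (2.20% of 9357 genes). A count of 0 of 35 is near these shares and says nothing particular about the members. The median log2 ratio of the members, with 1 CPM added to each level, was 0.05 (HFpEF-scr over Control) and 0.06 (HFpEF-FoxO1-sh over HFpEF-scr) in fibroblasts, and 0.01 and 0.05 in macrophages. Over all measured genes the same medians were -0.02 and 0.04 in both classes.

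**Figure D2:**
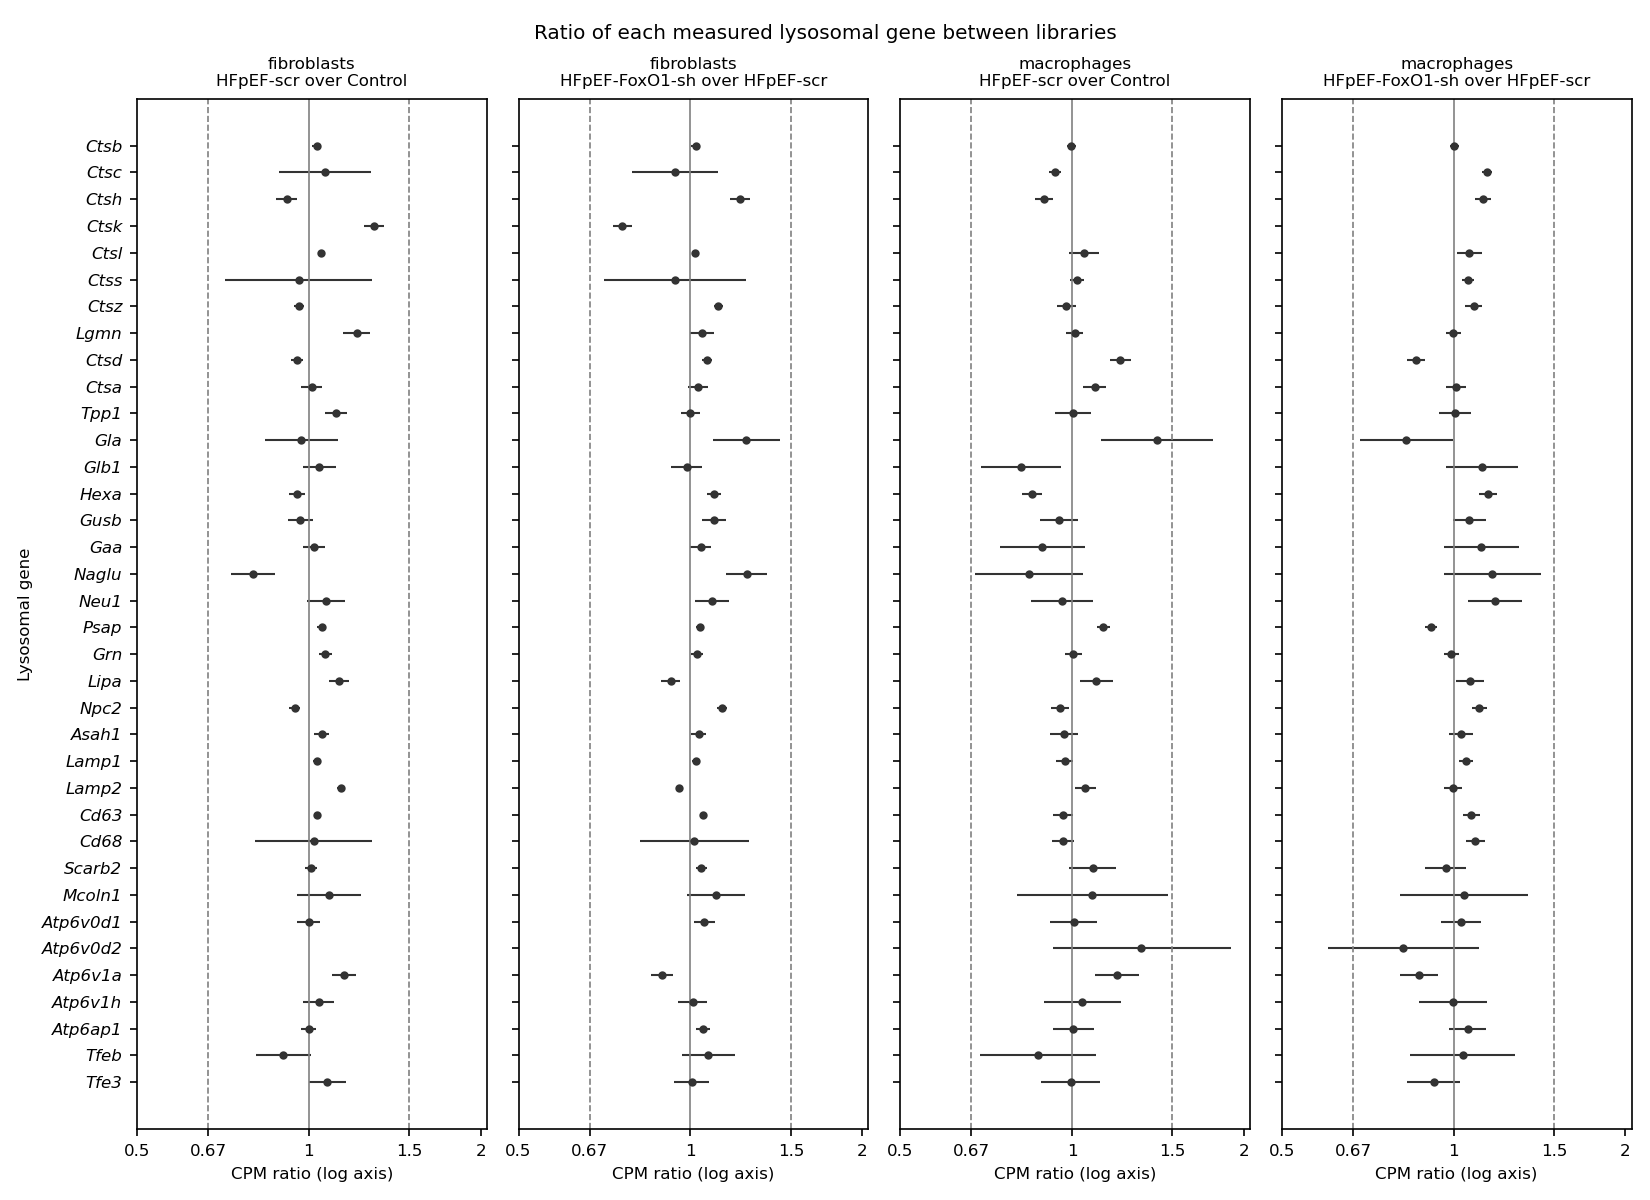
CPM ratio of each measured lysosomal gene on a log axis in fibroblasts and macrophages, with 1 panel per class and comparison, bars for the 95% counting interval and dashed lines at 1.5-fold either way. All measured members lie inside the dashed lines; in fibroblasts Ctsk is farthest from 1, at 1.30 in HFpEF-scr over Control and 0.76 in HFpEF-FoxO1-sh over HFpEF-scr.

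In fibroblasts the member with the ratio farthest from 1 in both comparisons was Ctsk, whose gene lies on GRCm38 chromosome 3 from 95499256 to 95509362. Ctsk was at 67.2 CPM in HFpEF-FoxO1-sh (5044 UMIs), 88.4 CPM in HFpEF-scr (5473 UMIs) and 68.0 CPM in Control (4038 UMIs). HFpEF-scr thus stood above both other libraries, with ratios of 1.30 (1.25 to 1.36) for HFpEF-scr over Control and 0.76 (0.73 to 0.79) for HFpEF-FoxO1-sh over HFpEF-scr. It was seen in 33.9% of fibroblasts of HFpEF-FoxO1-sh, 38.9% of HFpEF-scr and 33.6% of Control, and after thinning in 6.28%, 8.02% and 5.76%. The same order held in the separate fibroblast clusters, which are parts of the same libraries and not replicates. The ratio of HFpEF-scr over Control was above 1 in 8 of the 8 clusters where Ctsk was measured, from 1.06 to 1.39. HFpEF-FoxO1-sh over HFpEF-scr gave a ratio below 1 in 9 of 9 clusters, from 0.68 to 0.99. In the cluster led by Kcnip1 and Hsd11b1 Ctsk was at 78.7 CPM in HFpEF-FoxO1-sh, 116 CPM in HFpEF-scr and 83.6 CPM in Control, whereas in the cluster led by Wif1 it was at 66.3, 66.8 and 62.8 CPM. The highest mean was in the cluster led by Dio2 and Cilp, at 86.3 to 114 CPM over the libraries. That cluster held 947 of 10372 fibroblasts in HFpEF-FoxO1-sh, 1325 of 9109 in HFpEF-scr and 943 of 8296 in Control. The part of this mix in the Ctsk ratios was not tested.

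Other fibroblast members moved less. Naglu, the alpha-N-acetylglucosaminidase that degrades heparan sulfate, was at 18.8 CPM in HFpEF-FoxO1-sh, 14.95 CPM in HFpEF-scr and 18.7 CPM in Control, so that here HFpEF-scr was the lowest library. Its ratios were 0.80 (0.73 to 0.87) for HFpEF-scr over Control and 1.255 (1.15 to 1.36) for HFpEF-FoxO1-sh over HFpEF-scr. Lgmn, legumain, the asparaginyl endopeptidase that activates several cathepsins, was at 49.5 CPM in HFpEF-FoxO1-sh, 47.2 CPM in HFpEF-scr and 38.9 CPM in Control, with both High-Fat + L-NAME libraries above Control. Lamp2, a glycoprotein of the lysosomal membrane needed for fusion with autophagosomes, was at 495, 517 and 453 CPM in the same order, and its ratio of HFpEF-scr over Control was above 1 in 9 of 9 clusters. Ctsh, an aminopeptidase cathepsin, was at 78.9 CPM in HFpEF-FoxO1-sh, 64.5 CPM in HFpEF-scr and 70.5 CPM in Control. Of the 35 members, 33 stayed within 1.25-fold in HFpEF-scr against Control and 32 in HFpEF-FoxO1-sh against HFpEF-scr, beside 89.98% and 90.2% of all measured genes.

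For many members the fibroblast clusters differed more than the libraries did. For 34 members compared over 9 clusters, the highest cluster mean was less than 1.5 times the lowest for 16 and at least 2 times for 8, namely Ctsc, Ctsh, Lgmn, Gla, Glb1, Gaa, Cd68 and Mcoln1. Some of these rest on low levels. The lowest cluster was at 0.302 to 2.80 CPM for Cd68, 1.57 to 2.10 CPM for Ctsc and 1.98 to 4.59 CPM for Mcoln1. The cluster led by Wif1 (646 cells in HFpEF-FoxO1-sh, 821 in HFpEF-scr and 805 in Control) was the lowest for 16 members and the highest for 7. Lgmn was at 107 to 161 CPM in that cluster over the libraries, against 19.8 to 34.5 CPM in the cluster led by Cnmd and Inmt. Psap went the other way, at 265 to 297 CPM in the Wif1 cluster and 487 to 524 CPM in the small cluster led by Ifit3 and Ifit1, which was the highest for 8 members. Gaa was at 107 to 114 CPM in the Cnmd cluster and 41.9 to 48.1 CPM in the cluster led by Duox1. The clusters were made without the members, and these values are a description. Counts over the clusters are given without a share of all genes beside them. A range over 9 clusters can also be wider than one over 3 libraries because it spans more groups.

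In macrophages Ctsd, the aspartic protease cathepsin D, was at 512 CPM in HFpEF-FoxO1-sh (6681 UMIs), 595 CPM in HFpEF-scr (5874 UMIs) and 490 CPM in Control (3809 UMIs). Its ratios were 1.22 (1.17 to 1.27) for HFpEF-scr over Control and 0.86 (0.83 to 0.89) for HFpEF-FoxO1-sh over HFpEF-scr. Psap followed the same order at 1209 CPM in HFpEF-FoxO1-sh, 1325 CPM in HFpEF-scr and 1168 CPM in Control. Gla, the alpha-galactosidase A missing in Fabry disease, was at 18.7, 22.6 and 16.1 CPM, with a ratio of HFpEF-scr over Control of 1.41 (1.12 to 1.77). Atp6v1a, the catalytic A subunit of the V-ATPase, was at 108, 124 and 104 CPM, and Atp6v0d2 at 7.20, 8.82 and 6.69 CPM. For these 5 members HFpEF-scr was the highest library. Hexa, the alpha subunit of beta-hexosaminidase, had the opposite order with 561 CPM in HFpEF-FoxO1-sh, 489 CPM in HFpEF-scr and 574 CPM in Control. The most abundant cathepsin, Ctsb, had ratios of 1.00 in both comparisons, and Lgmn, at 772, 772 and 764 CPM, had ratios of 1.01 and 1.00. The macrophages also differed in mitochondrial RNA, with 9.85% of their UMIs in HFpEF-FoxO1-sh, 13.3% in HFpEF-scr and 13.9% in Control, and its part in these ratios was not tested.

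Ctsd and Psap were highest in a small group of macrophages whose share differed between the libraries. Macrophages were clustered again without the members, and the sub-cluster led by Gpnmb and Spp1, whose 10 leading genes also include Ly6c2, Plac8 and Chil3 of the monocyte cluster, made up 131 of 1984 macrophages in HFpEF-FoxO1-sh (6.60%, 5.55 to 7.79%), 153 of 1513 in HFpEF-scr (10.1%, 8.64 to 11.7%) and 64 of 1094 in Control (5.85%, 4.53 to 7.41%). Ctsd was at 1368 CPM in those cells of HFpEF-FoxO1-sh, 1770 CPM in HFpEF-scr and 1726 CPM in Control, against 444, 421 and 399 CPM in the remaining macrophages, a pooled ratio of 3.81 (3.68 to 3.95). Psap was at 2356, 2603 and 2670 CPM in those cells and at 1118, 1135 and 1058 CPM in the rest. Gla was at 47.0, 45.4 and 52.8 CPM against 16.5, 19.2 and 13.4 CPM. Among the 5 large sub-clusters, 8 of the 35 members with at least 100 macrophage UMIs were highest there in all 3 libraries, namely Ctss, Ctsz, Ctsd, Gla, Psap, Npc2, Cd68 and Atp6v0d2, where 6.38% of all 9919 such genes were. Of the 35, 2 were lowest there in all 3, Ctsc and Lamp2, beside 9.82% of all genes, with Ctsc at 1046, 932 and 1048 CPM against 1708, 1527 and 1586 CPM in the rest. The other sub-clusters differed as well: Ctsd was at 173 to 178 CPM in the one led by Tmem119 and Zmynd15 and at 638 to 735 CPM in the one led by Cd209d and Cd209f. Lgmn, by contrast, had pooled levels from 631 to 870 CPM over the 5.

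Without the Gpnmb and Spp1 sub-cluster Ctsd was at 444 CPM in HFpEF-FoxO1-sh, 421 CPM in HFpEF-scr and 399 CPM in Control. The ratio of HFpEF-scr over Control was then 1.05 (1.00 to 1.11), and HFpEF-FoxO1-sh over HFpEF-scr stood at 1.05 (1.01 to 1.10), above 1 where it had been 0.86. The Psap ratios became 1.07 and 0.99. Gla kept a ratio of 1.44 (1.11 to 1.86) and Atp6v1a one of 1.15 (1.05 to 1.27) for HFpEF-scr over Control among the remaining macrophages, both under 1.5. Within the Gpnmb and Spp1 sub-cluster itself Ctsd was lower in HFpEF-FoxO1-sh than in HFpEF-scr, with a ratio of 0.77 (0.72 to 0.83), and close to even between HFpEF-scr and Control at 1.03 (0.95 to 1.11).

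The mitochondrial limit bears on this directly. With a limit of 10% in place of 20%, 979 macrophages remained in HFpEF-FoxO1-sh (49.3%), 184 in HFpEF-scr (12.2%) and 104 in Control (9.51%), and the Gpnmb and Spp1 sub-cluster then made up 7.35%, 24.5% and 15.4% of them. Under that limit Ctsd was at 612 CPM in HFpEF-FoxO1-sh, 1375 CPM in HFpEF-scr and 1105 CPM in Control. HFpEF-FoxO1-sh over HFpEF-scr then gave 0.44 for Ctsd, 0.64 for Psap, 0.56 for Gla, 0.48 for Atp6v0d2 and 0.64 for Atp6v1a, and these 5 of 34 measured members passed the fold, as did 9.52% of all 7405 measured genes. With the same limit and without the sub-cluster 0 members passed it in that comparison, beside 8.61% of all genes, and the Ctsd ratio was 0.70. The lower limit thus changed the mix of macrophages as well as their number.

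**Figure D3:**
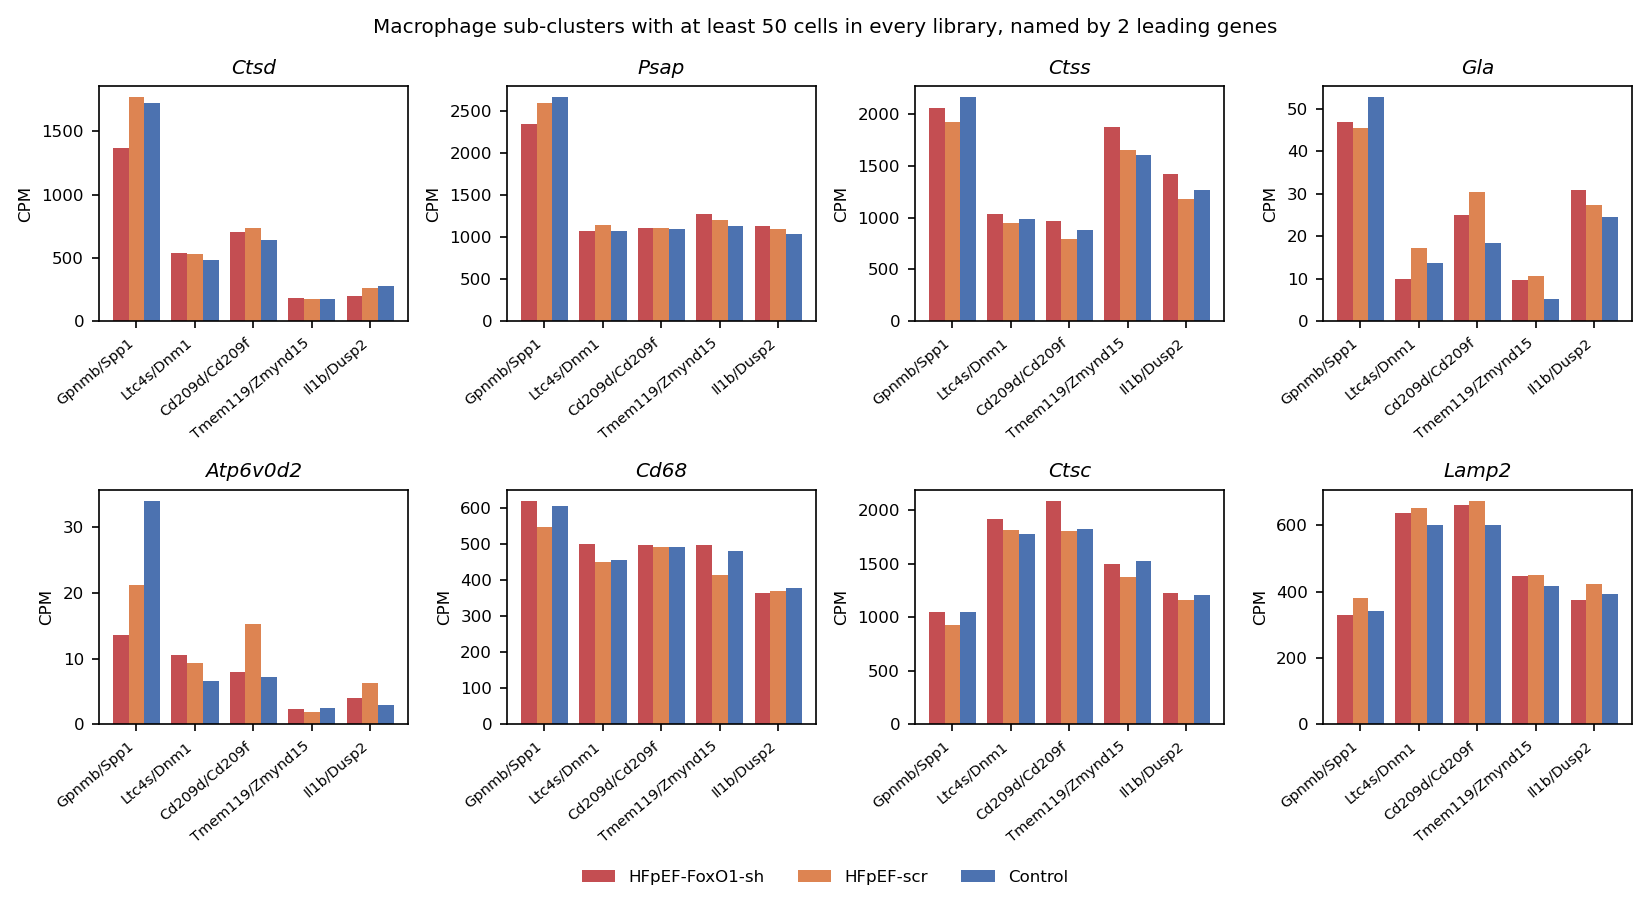
Level of 8 lysosomal genes (bars, CPM) in the 5 macrophage sub-clusters with at least 50 cells in every library, each called by its 2 leading genes, with HFpEF-FoxO1-sh, HFpEF-scr and Control from left to right. Ctsd stands at 1368 to 1770 CPM in the sub-cluster led by Gpnmb and Spp1, above the other 4, while Ctsc and Lamp2 are lowest there in each library.

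In endothelial cells 31 members were measured in HFpEF-scr against Control, of which 4 were lower past the fold and 0 higher, beside 2.35% of 8088 genes lower and 1.71% higher. In HFpEF-FoxO1-sh against HFpEF-scr 30 were measured, with 3 higher and 0 lower, beside 3.27% of 7978 genes higher and 1.47% lower. The 4 were Ctsc, Ctss, Ctsh and Cd63, and the 3 were Ctsc, Ctsh and Cd63. Ctsc was at 26.7 CPM in HFpEF-FoxO1-sh (101 UMIs), 6.63 CPM in HFpEF-scr (38 UMIs) and 38.6 CPM in Control (156 UMIs), with ratios of 4.03 (2.75 to 6.01) for HFpEF-FoxO1-sh over HFpEF-scr and 0.17 for HFpEF-scr over Control. Ctss was at 12.7, 3.49 and 20.8 CPM in the same order of libraries. Ctsh was at 42.0, 22.7 and 45.8 CPM, and Cd63 at 260, 168 and 255 CPM, both lowest in HFpEF-scr.

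Macrophage transcripts moved with Ctsc and Ctss. All 13 macrophage markers had a UMI in the endothelial cells of each library, and they summed to 367 CPM in HFpEF-FoxO1-sh, 105 CPM in HFpEF-scr and 736 CPM in Control. The cells with at least 10 macrophage marker UMIs numbered 11 of 425 in HFpEF-FoxO1-sh, 4 of 546 in HFpEF-scr and 14 of 363 in Control, and they held 89.1%, 36.8% and 91.7% of the endothelial Ctsc UMIs. In endothelial cells with no macrophage marker UMI (346, 454 and 299 cells) Ctsc was at 3.05, 1.98 and 3.16 CPM, from 9, 9 and 10 UMIs. Ctsh and Cd63 were still lowest in HFpEF-scr in those cells, with Ctsh at 34.3 CPM in HFpEF-FoxO1-sh, 20.7 CPM in HFpEF-scr and 40.8 CPM in Control, and Cd63 at 242, 159 and 247 CPM. Fibroblast markers summed to 8175, 5710 and 7831 CPM in the endothelial cells, also lowest in HFpEF-scr, and their part in Ctsh and Cd63, which fibroblasts express, was not tested. With a mitochondrial limit of 50%, where the cells were clustered anew, Ctsh and Cd63 were no longer lower in HFpEF-scr than in Control.

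**Figure D4:**
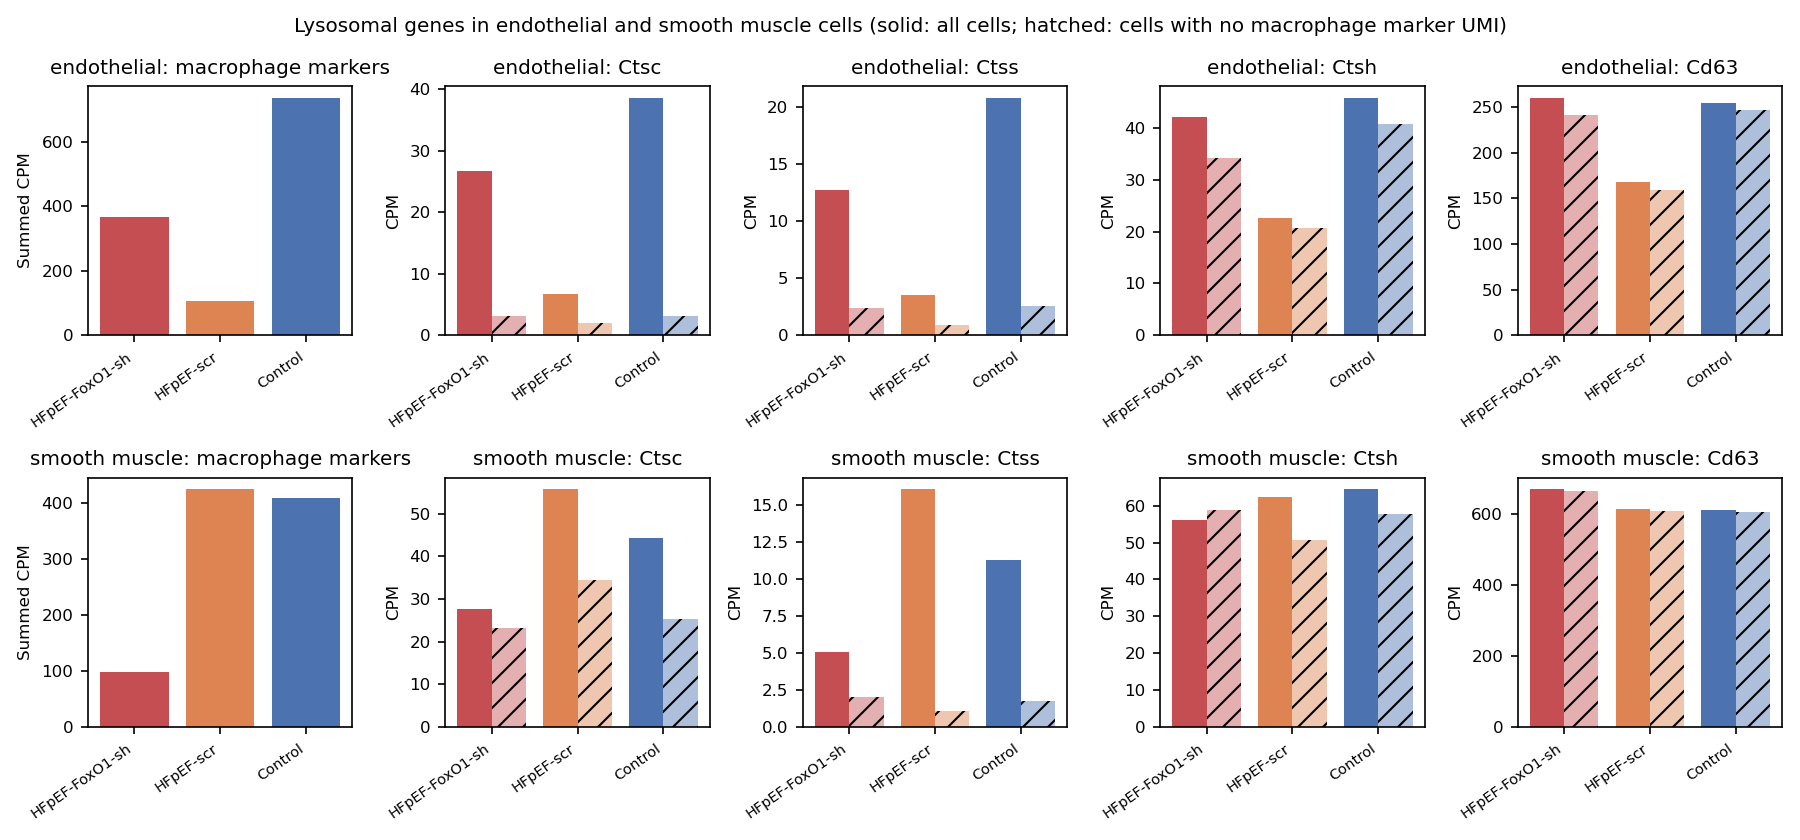
Summed macrophage markers and levels of Ctsc, Ctss, Ctsh and Cd63 (bars, CPM) in endothelial cells (top) and smooth muscle cells (bottom) of HFpEF-FoxO1-sh, HFpEF-scr and Control, with solid bars for all cells and hatched bars for cells with no UMI of the 13 macrophage markers. In endothelial cells the hatched Ctsc bars are at 1.98 to 3.16 CPM, while Ctsh and Cd63 remain lowest in HFpEF-scr.

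In smooth muscle cells 30 members were measured in HFpEF-scr against Control, with 1 lower past the fold and 0 higher (1.97% of 7169 genes lower, 1.55% higher). The 1 was Naglu, at 11.5 CPM in HFpEF-FoxO1-sh, 8.90 CPM in HFpEF-scr and 17.1 CPM in Control, with a ratio of 0.52 (0.33 to 0.81) from 31 and 71 UMIs. In HFpEF-FoxO1-sh against HFpEF-scr 27 were measured, with 1 lower and 0 higher (1.93% of 6840 genes lower, 1.18% higher). This was Ctsc, at 27.7 CPM in HFpEF-FoxO1-sh (99 UMIs), 55.7 CPM in HFpEF-scr (194 UMIs) and 44.2 CPM in Control (184 UMIs), with a ratio of 0.50 (0.39 to 0.64). Macrophage markers summed to 98.1 CPM in these cells of HFpEF-FoxO1-sh, 424 CPM in HFpEF-scr and 409 CPM in Control. In smooth muscle cells with no macrophage marker UMI (311, 304 and 347 cells) Ctsc was at 23.1, 34.5 and 25.2 CPM, a smaller difference than over all cells. These levels stand above the 3.79 to 4.04 CPM of fibroblasts. Ctss, by contrast, was at 5.04, 16.1 and 11.3 CPM over all smooth muscle cells and at 2.04, 1.09 and 1.74 CPM in those without a macrophage marker UMI.

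In 8 of the 11 classes Atp6v1a was highest in HFpEF-scr. In HFpEF-scr over Control its ratio was above 1 in 9 of the 11 classes, from 0.93 to 1.56. The interval lay wholly above 1 in 4. In Schwann cells, T cells and the cluster led by Gzma and Ccl5 Atp6v1a did not count as measured in either comparison. Both ends of the range came from these classes, 0.93 from Schwann cells (49 and 44 UMIs) and 1.56 from T cells (18 and 11 UMIs). The classes where it was measured ran from 0.999 (lymphatic endothelial cells) to 1.41 (the cluster led by Cd209a and Tnip3). In HFpEF-FoxO1-sh over HFpEF-scr the ratio was below 1 in 10 of 11, from 0.56 to 1.05. The interval lay wholly below 1 in 5. The 0.56 and 1 of these 5 intervals belong to Schwann cells (34 and 49 UMIs). The classes where Atp6v1a was measured ran from 0.74 (smooth muscle cells) to 1.05 (endocardial cells). These counts over classes are given without a share of all genes beside them. In fibroblasts Atp6v1a was at 55.6 CPM in HFpEF-FoxO1-sh, 62.4 CPM in HFpEF-scr and 54.1 CPM in Control. In endothelial cells it was at 68.5, 89.2 and 74.7 CPM and in smooth muscle cells at 62.5, 85.0 and 74.5 CPM, so HFpEF-scr was the highest library in each. Classes of 1 library share their preparation and sequencing and are not replicates. Atp6v1a was the single member of 27 measured in all 4 main classes that was lower in each of them in HFpEF-FoxO1-sh against HFpEF-scr (3.70% of members, 12.0% of all 5829 such genes). Higher in each of the 4 classes were 7 of the 27 (25.9%, beside 21.0% of all genes). In HFpEF-scr against Control 5 of 28 members were higher in each (17.9%, beside 13.1%) and 4 lower in each (14.3%, beside 15.9%). Apart from the 3.70% beside 12.0%, which rests on 1 member, these shares are close to those of all genes.

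Beyond the 36, 116 further genes of the lysosome, its sorting receptors and inhibitors, mTORC1 at the lysosome and autophagy were listed. In fibroblasts 105 were measured in HFpEF-scr against Control with 0 past the fold, beside 2.41% of all measured genes. In HFpEF-FoxO1-sh against HFpEF-scr 106 were measured with 2 lower, beside 2.27% of all genes past the fold either way. One of these was Cst6, cystatin M, a secreted inhibitor of cathepsins and legumain, at 36.2 CPM in HFpEF-FoxO1-sh, 58.3 CPM in HFpEF-scr and 44.99 CPM in Control, a ratio of 0.62 (0.59 to 0.65). The other was Laptm5, a lysosomal membrane protein of blood cells, at 0.880, 1.60 and 1.36 CPM. Cst6 thus shared its highest library with Ctsk. Cst6 is also among the 10 leading genes of the fibroblast cluster led by Dio2 and Cilp. That cluster held 947 of 10372 fibroblasts in HFpEF-FoxO1-sh, 1325 of 9109 in HFpEF-scr and 943 of 8296 in Control. The part of this mix in the Cst6 ratio was not tested. In macrophages 104 were measured in each comparison, with 0 past the fold in HFpEF-scr against Control (2.57% of all genes). In HFpEF-FoxO1-sh against HFpEF-scr 1 was lower, beside 2.20% of all genes past the fold either way. This was Gpnmb, at 9.58 CPM in HFpEF-FoxO1-sh, 30.6 CPM in HFpEF-scr and 21.5 CPM in Control, a ratio of 0.31 (0.25 to 0.39). Gpnmb is a leading gene of the macrophage sub-cluster described above. That sub-cluster made up 6.60% of macrophages in HFpEF-FoxO1-sh, 10.1% in HFpEF-scr and 5.85% in Control. The part of this share in the Gpnmb ratio was not tested. In endothelial cells 82 were measured in each comparison. Of all genes there, 1.71% were higher and 2.35% lower past the fold in HFpEF-scr against Control. In HFpEF-FoxO1-sh against HFpEF-scr 3.27% were higher and 1.47% lower. Vps39 was higher and Rnaset2a and Laptm5 lower in HFpEF-scr against Control, and Nagpa, Laptm5 and Wipi1 were higher and Atp6v0a2 and Cst6 lower in HFpEF-FoxO1-sh against HFpEF-scr. Rnaset2a has a near-identical copy, Rnaset2b, between which reads can be split. In smooth muscle cells Fnip2 was higher in HFpEF-scr against Control (77 measured, 1.55% of all genes higher). Uvrag was lower in HFpEF-FoxO1-sh against HFpEF-scr (74 measured, 1.93% of all genes lower). Such counts are near the shares of all genes and say nothing particular about the 116.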

How the data were processed

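Droplet 3′ single-cell libraries (Chromium 3′ HT v3.1) of left ventricle were processed with Cell Ranger 6.1.2 and the mm10 genome, per the submitters' processing notes. The authors deposited whole-number UMI counts per gene and barcode, not normalized, as the values show. Filters required 500 UMIs, 300 genes and a mitochondrial share of no more than 20% per barcode, and doublets marked by Scrublet in scanpy 1.11.5 were removed. Cells were clustered (2000 variable genes without the members, 30 components, 15 neighbours, Leiden resolution 1) and clusters named from 196 markers of 22 classes. For each class of a library the counts of a gene were added up and scaled to 1000000 UMIs of that class (CPM); 3′ UMI counts are not scaled by transcript length. Intervals are exact Poisson (levels), exact conditional binomial (ratios) and Clopper-Pearson (shares), and cover counting error only. The ratio intervals were checked on simulated Poisson counts, the model they assume. That check does not cover UMIs that are concentrated in a few cells.

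The members and lists were chosen with earlier results of these data known. A second naming pass for clusters (at least 5 markers at 3-fold or more over non-fibroblast cells), the sub-clusters of macrophages (resolution 0.5), the rule that left out 4 mixed classes and the removal of cells with macrophage marker UMIs were added after the clusters had been seen. Any member could be named, and from each further list up to 4 measured genes with the largest ratio per class and comparison. Alternatives covered the mitochondrial limit, UMI minimum, doublets, resolution, naming per cell, thinning, scaling, the measured minimum and the pseudocount of 1 CPM. Protein sequences were not used here.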

Additional observations from a re-analysis of the deposited data

Results flagged for a closer look

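Ctsc, the dipeptidyl peptidase cathepsin, had ratios of opposite direction in 2 vascular classes of the same pair of libraries. In HFpEF-FoxO1-sh over HFpEF-scr it was 4.03 in endothelial cells, from 26.7 CPM in HFpEF-FoxO1-sh against 6.63 CPM in HFpEF-scr, and 0.498 in smooth muscle cells, from 27.7 CPM in HFpEF-FoxO1-sh against 55.7 CPM in HFpEF-scr. With 1 library per group the difference between the classes was not tested. The summed macrophage markers moved the same way, at 367 CPM in HFpEF-FoxO1-sh and 105 CPM in HFpEF-scr for endothelial cells, and at 98.1 CPM in HFpEF-FoxO1-sh and 424 CPM in HFpEF-scr for smooth muscle cells. In cells with no macrophage marker UMI Ctsc was at 3.05 CPM in HFpEF-FoxO1-sh and 1.98 CPM in HFpEF-scr for endothelial cells, and at 23.1 CPM in HFpEF-FoxO1-sh and 34.5 CPM in HFpEF-scr for smooth muscle cells.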

How the results depend on the processing

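No paired analysis was possible because each group is 1 pooled library. With 1 library per group and 31 to 194 UMIs behind the vascular Ctsc and Naglu values, depth limits what those classes can show. The summed level of macrophages over fibroblasts (2.39 in HFpEF-FoxO1-sh, 2.39 in HFpEF-scr and 2.47 in Control) was 2.50, 2.98 and 2.92 with a mitochondrial limit of 10%, 2.35, 2.29 and 2.37 with a limit of 50%, 2.26, 2.27 and 2.34 with doublets kept, 2.35, 2.35 and 2.39 with each cell named singly, and 2.29, 2.27 and 2.39 with cells thinned to 1000 UMIs. In fibroblasts HFpEF-FoxO1-sh against HFpEF-scr had 1 member past the fold with the 10% limit, and a median log2 ratio of 0.0028 with CPM without mitochondrial UMIs, beside -0.01 over all genes. In macrophages HFpEF-scr against Control had 1 member past the fold with the 10% limit (Atp6v1a, also without the Gpnmb and Spp1 sub-cluster, 1), 2 with doublets kept, and 1 with a minimum of 20 UMIs or none. HFpEF-FoxO1-sh against HFpEF-scr there had 5 and a median log2 ratio of -0.044 with the 10% limit, and a median of -0.068 with that limit and without the sub-cluster. In endothelial cells HFpEF-scr against Control had 1 member past the fold (median 0.11) with the 50% limit, where Ctsh and Cd63 turned to log2 ratios of 0.044 and 0.12. It had 2 with doublets kept, at resolution 2, with cells named singly, and in cells without macrophage marker UMIs, 1 with thinning, and 7 with a minimum of 20 UMIs or none. HFpEF-FoxO1-sh against HFpEF-scr there had 1 with the 10% limit, with cells named singly or with thinning, and 5 with a minimum of 20 UMIs or none. In smooth muscle cells HFpEF-scr against Control had 0 with either limit, with cells named singly, with thinning and in cells without macrophage marker UMIs, and 4 with a minimum of 20 UMIs or none. HFpEF-FoxO1-sh against HFpEF-scr there had 0 with doublets kept, with thinning and in cells without macrophage marker UMIs, and 5 with a minimum of 20 UMIs or none. The removal of cells with macrophage marker UMIs and of the sub-cluster was chosen after seeing the data. Of all measured genes, over these classes and comparisons, 6.55% to 12.6% passed the fold with a minimum of 20 UMIs and 10.7% to 15.9% with none, against 2.20% to 4.74% with 100. With the 10% limit 2.13% to 18.7% passed it. Causes were not tested, except that a lower UMI minimum counts more genes by construction. Of the values planned for single members, 2663 kept their size within the counting interval, 250 moved and 2 reversed. Of the planned values marked as headline results, 165 stayed the same and 46 moved. Under alternatives that were not planned, 183 values stayed and 53 moved, as did 11 and 5 of the headline values.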

Other observations

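The dendritic cluster led by Cd209a and Tnip3 held 1 Atp6v0d2 UMI in HFpEF-FoxO1-sh, 63 (30.8 CPM) in HFpEF-scr and 0 in Control. The UMIs of HFpEF-scr came from 6 of 209 cells, and 1 cell alone held 44 of them, more than any macrophage (up to 9 UMIs per cell). In endocardial cells Lgmn was at 115 CPM in HFpEF-FoxO1-sh, 76.3 CPM in HFpEF-scr and 71.5 CPM in Control, so that HFpEF-FoxO1-sh over HFpEF-scr stood at 1.51 (1.27 to 1.80). Ctss in monocytes was at 1477 CPM in HFpEF-FoxO1-sh (80 cells), 1014 CPM in HFpEF-scr (271 cells) and 1101 CPM in Control (98 cells), and HFpEF-FoxO1-sh over HFpEF-scr stood at 1.46 (1.34 to 1.59). Psap and Npc2 had the same order between these 2 libraries in monocytes, with ratios of 1.24 and 1.31. These values were picked after they had been seen.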
